A study of Mus musculus with 19 samples.

Results

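The interferon response was examined through 36 genes that interferons induce, matched by gene name among the 39395 genes of the table of read counts. Of these, 20 are known mainly as targets of type I interferon, 11 mainly as targets of type II interferon, and 5 (Zbp1, Irf9, Stat2, Ifi35 and Cxcl10) respond to both. The sorting into classes rests on textbook knowledge, and most of these genes answer to some degree to either kind of interferon. In 19 RNA-seq libraries of abdominal aortas, 35 of the 36 genes had enough counts to be tested. None of them passed the adjusted threshold of 0.05 in edgeR's quasi-likelihood test between the groups, and a single library, D+1 IR 20, held the highest level of 31 of the 35.

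All mice were Apoe-/- males on a C57Bl/6J background, 8 to 10 weeks old when osmotic pumps began to infuse angiotensin II (AngII), which drives aneurysm formation in this strain. The 5 control mice were anaesthetized but not irradiated, the 7 D-3 IR mice received total-body irradiation of 1 Gy 3 days before the pump, and the 7 D+1 IR mice the same dose 1 day after it started. Each library came from the abdominal aorta of 1 mouse, so that fewer cells of a type and less RNA per cell cannot be told apart. Mice of the study were sacrificed on day 7 or day 28, and which day holds for these libraries is not stated by name. Mice without AngII were not analysed here, and all 3 groups share the Apoe deletion and the infusion.

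Type I interferons (the alpha and beta interferons) signal through the receptor Ifnar1/Ifnar2 and a complex that holds Stat2 and Irf9, which binds interferon-stimulated response elements (ISRE) near its targets. Type II interferon (Ifng), made chiefly by T and NK cells, signals through Ifngr1/Ifngr2 to gamma-activated sites (GAS). The first set of targets is rich in proteins that block viral RNA, and the second in GTPases against intracellular microbes, antigen processing and chemokines for T cells. In the aortic wall, macrophages, endothelial cells and smooth muscle cells can all respond.

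The libraries held 25839001 to 97083681 counts in genes (median 39641963). Smooth muscle markers had summed levels of 1085 to 26260 CPM (counts scaled to the library's total by TMM factors), and none of the 5 was at 0 in all libraries. Libraries D-3 IR 10 and D+1 IR 3 stood apart by lymphoid markers, with summed B cell markers of 382 and 236 CPM against 0.817 to 21.5 CPM in all others. Library D+1 IR 20 had the highest summed macrophage markers (2205 CPM). Where a direction or a count turned on these libraries, it is given below with and without them.

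The sequence before the start site shows what the classes share. RefSeq start sites (GRCm38.p6) were matched for 29 of the 36 genes. Windows from 250 bases before to 50 after each start were searched on both strands for an ISRE core, spelled GAAANNGAAA or TTTCNNTTTC, and for a GAS, spelled TTCNNNGAA, which reads the same on either strand. An ISRE core was found in 15 of the 29 genes (51.7%), against 3.99% of the 27025 genes of the promoter table. By class the matches were in 8 of 15 type I genes, 5 of 10 type II genes and 2 of 4 genes of both. For Gbp5 the window is that of the gene RefSeq calls Gbp5. A GAS was found in 9 of 29 genes (31.0%), against 9.55% of all genes, namely in 4 of 15 type I genes, 4 of 10 type II genes and 1 of 4 genes of both. In Bst2 a GAS match overlapped an ISRE match, and neighbouring ISRE matches overlapped in several genes. A match is a stretch of letters only and says nothing of binding. Shown here are the 150 bases before the start of 3 type I genes and of 3 type II genes, 5′ to 3′ on the gene's strand, with ISRE matches in capitals in the first 5 and the GAS match in capitals in Irf1.
Ifit1 (chr19:34640739-34640888, plus strand): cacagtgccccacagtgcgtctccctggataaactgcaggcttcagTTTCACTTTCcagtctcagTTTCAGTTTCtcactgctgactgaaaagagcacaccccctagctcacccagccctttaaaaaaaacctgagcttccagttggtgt
Isg15 (chr4:156200819-156200968, minus strand): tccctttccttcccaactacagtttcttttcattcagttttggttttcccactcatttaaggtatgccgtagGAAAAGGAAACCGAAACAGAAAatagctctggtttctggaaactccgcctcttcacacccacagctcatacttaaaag
Rsad2 (chr12:26456453-26456602, minus strand): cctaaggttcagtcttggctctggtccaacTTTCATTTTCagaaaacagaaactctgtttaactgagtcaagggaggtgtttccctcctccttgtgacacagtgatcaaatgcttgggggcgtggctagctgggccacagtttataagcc
Gbp2 (chr3:142620513-142620662, plus strand): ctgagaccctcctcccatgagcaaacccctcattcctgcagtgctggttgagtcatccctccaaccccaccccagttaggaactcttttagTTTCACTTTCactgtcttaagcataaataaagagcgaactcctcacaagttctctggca
Irgm1 (chr11:48871421-48871570, minus strand): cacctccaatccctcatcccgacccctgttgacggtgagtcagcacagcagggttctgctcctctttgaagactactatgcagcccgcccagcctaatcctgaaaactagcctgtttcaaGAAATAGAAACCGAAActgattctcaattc
Irf1 (chr11:53769864-53770013, plus strand): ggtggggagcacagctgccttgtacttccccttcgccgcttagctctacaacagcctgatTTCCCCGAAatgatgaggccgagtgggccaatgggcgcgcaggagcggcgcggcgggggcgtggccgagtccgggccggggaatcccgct

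Levels differed widely among the 36 genes. Per length of exon, averaged over the 19 libraries, Bst2 (tetherin, which holds budding virus at the cell surface) had the highest level at 102 CPM per kb. Isg15, a ubiquitin-like protein, followed at 27.9, then Ifit3 at 16.5, Ifi35 at 13.7 and Gbp2 at 13.0 CPM per kb. Mx2 (0.581 CPM per kb), Mx1 (0.709), Ifi44 (0.881) and Oas3 (0.908) were the lowest of the tested genes. Type I genes also varied more between libraries. Their coefficient of variation of CPM had a median of 84.1% and reached 177% in Oas3, while type II genes had a median of 42.1%, with 17.6% in Gbp2 as the lowest. Over all 17617 genes tested the median was 39.8%. Leaving out D+1 IR 20 gave medians of 57.3% for type I genes, 35.6% for type II genes and 38.6% for all genes.

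**Figure D1:**
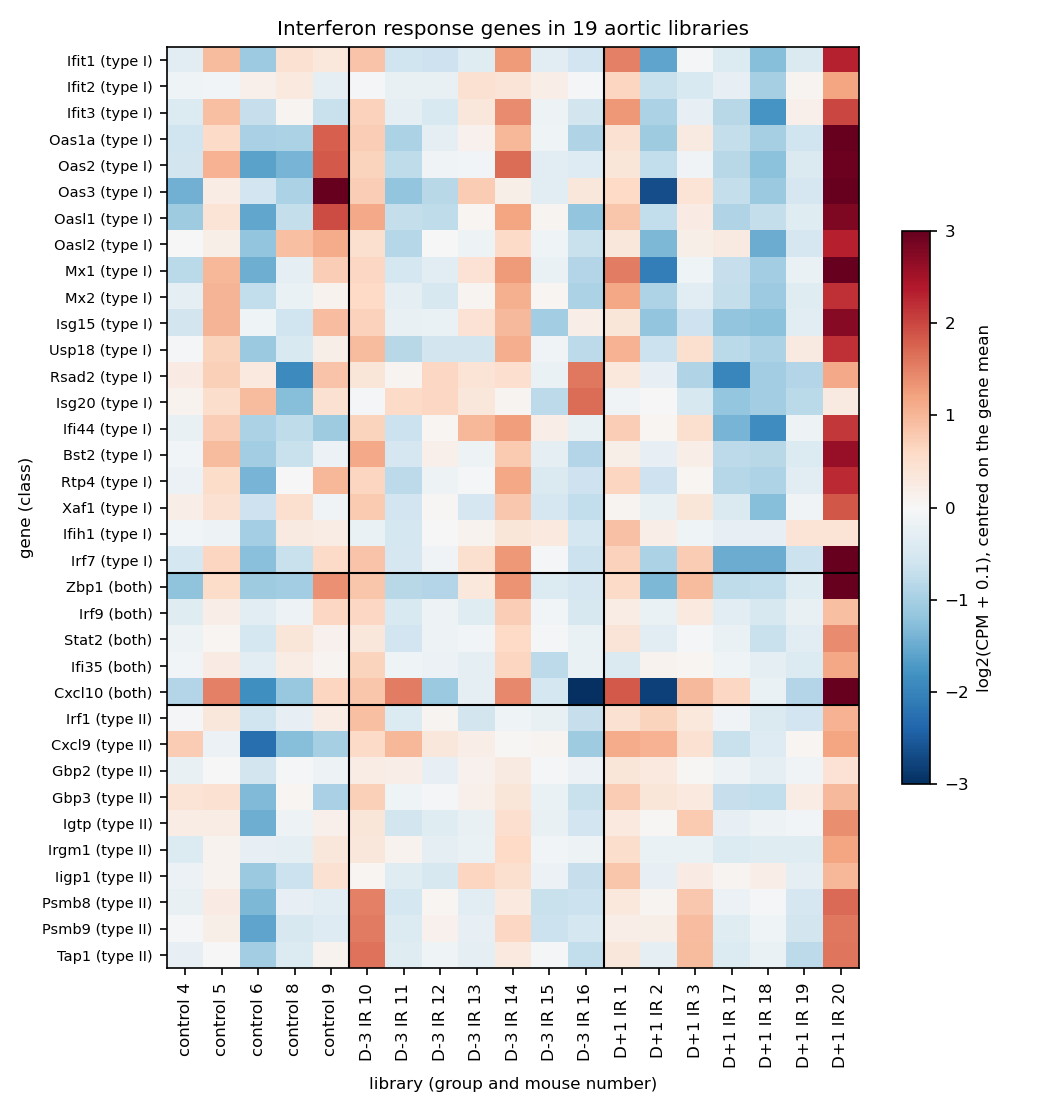
Heat map of the 35 tested interferon response genes (rows, grouped by class) in the 19 libraries (columns, grouped as control, D-3 IR and D+1 IR), coloured by log2(CPM + 0.1) centred on each gene's mean. The column of D+1 IR 20 is red in nearly every row, control 9 is red in the Oas genes, and Rsad2 and Isg20 are highest in D-3 IR 16.

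The Ifit genes encode proteins that bind foreign RNA, and all 3 lie on chromosome 19 (Ifit1 at 34640871 to 34650009 of GRCm38). In control aortas Ifit1 was at 12.4, 30.3, 7.20, 21.4 and 19.4 CPM in libraries 4, 5, 6, 8 and 9. In D-3 IR it ranged from 10.0 to 37.8 CPM with a median of 12.0, and in D+1 IR from 5.07 to 77.4 CPM with a median of 11.7. The groups overlapped almost fully, the medians of both irradiated groups lay below most controls, and D+1 IR 1 (44.2 CPM) and D+1 IR 20 lay above the highest D-3 IR library. The log2 fold change was -0.07 (SE 0.61) in D-3 IR against control. In D+1 IR against control it was 0.43 (SE 0.61), and -0.21 (SE 0.53) without D+1 IR 20. Ifit3, which stabilizes RNA binding by its partners, was at 17.6, 43.6, 14.4, 24.8 and 14.7 CPM in the controls, at 15.9 to 62.7 CPM in D-3 IR (median 20.99) and at 6.75 to 93.1 CPM in D+1 IR (median 19.7). Its medians were close in the 3 groups. D-3 IR 14 and D+1 IR 20 were the highest of their groups, and D+1 IR 1 followed with 57.7 CPM. Ifit2 varied less, between 9.55 and 44.0 CPM over all libraries. The ISRE pair before Ifit1 is shown above, and no such match lies in the windows of Ifit2.

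The oligoadenylate synthetases make the second messenger that activates RNase L, and 5 members of this family lie on chromosome 5. Control Oas1a was at 4.38, 10.0, 3.33, 3.39 and 23.4 CPM, with the highest value in control 9. In D-3 IR it lay between 3.38 and 13.4 CPM (median 6.09), and in D+1 IR between 3.14 and 61.2 CPM (median 4.34). Apart from D+1 IR 20, the D+1 IR libraries reached no more than 9.25 CPM, less than 2 of the 5 controls. Oas3 showed the same pair of high libraries, with 31.8 CPM in control 9 and 43.8 CPM in D+1 IR 20, while the other 17 libraries lay between 0.402 and 5.31 CPM. The Oas3 log2 fold change was 0.06 (SE 0.99) in D+1 IR against control and -1.72 (SE 0.79) without D+1 IR 20. Oas2 and its relatives Oasl1 and Oasl2 ranged from 1.84 to 44.9, 1.28 to 28.5 and 8.41 to 120 CPM and were also highest in D+1 IR 20. In D-3 IR against control all 5 members of the family were below 0, with a median log2 fold change of -0.30, and without control 9 the count turned to 4 of 5 above 0 with a median of 0.56. In D+1 IR against control all 5 were above 0, with a median of 0.31, and without control 9 this median was 1.33. With D+1 IR 20 left out, none of the 5 was above 0 and the median was -0.73. The direction of the family thus turned with 1 control library in the first comparison and with 1 irradiated library in the second. Of all genes, 43.1% were above 0 in the first comparison and 44.9% in the second. Without control 9 these shares were 47.5% and 48.5%, and without D+1 IR 20 the second was 43.2%. Control 9 also had the highest summed neutrophil markers of all libraries, 871 CPM against 2.22 to 87.9 CPM in the others. Their part in the Oas levels was not tested.

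Isg15 and Usp18, the protease that removes it, are a further pair of type I targets. Isg15 (chromosome 4, 156199424 to 156200818) was at 10.8, 32.5, 14.5, 10.4 and 30.2 CPM in the controls. The D-3 IR libraries lay between 7.69 and 31.5 CPM (median 18.2) and the D+1 IR libraries between 6.78 and 106 CPM (median 10.3). With D+1 IR 20 set aside, no D+1 IR library exceeded 20.4 CPM. The log2 fold change in D+1 IR against control was 0.30 (SE 0.64) with all libraries and -0.88 (SE 0.40) without D+1 IR 20, with adjusted p = 0.919 and 0.502 from edgeR. Usp18 had a mean ± SD of 6.23 ± 2.77 CPM over the 5 controls, of 6.82 ± 4.33 over the 7 D-3 IR libraries and of 10.0 ± 9.28 over the 7 D+1 IR libraries, and most D+1 IR libraries lay within the range of the controls. The Mx genes, of the family of dynamin-like GTPases, were scarce, with Mx1 at 0.352 to 15.2 CPM and Mx2 at 0.740 to 8.18 CPM over all libraries. Among the other antiviral effectors, Bst2 reached 449 CPM in D+1 IR 20 against 40.9 to 83.7 CPM in the other D+1 IR libraries, and Ifi44 had the highest value of all members for D-3 IR against control, a log2 fold change of 0.76 (SE 0.57). Rtp4, a protein that restrains flaviviruses, and Xaf1, which promotes cell death, had log2 fold changes between -0.37 and 0.31 in all 3 comparisons. For D+1 IR against control the values of Bst2, Rtp4 and Xaf1 turned below 0 without D+1 IR 20 (-0.23, -0.42 and -0.33).

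Rsad2 and Isg20 had another pattern than most type I genes. Rsad2 (viperin, an enzyme that makes a chain terminator for viral polymerases) was at 39.7, 55.0, 41.1, 8.88 and 60.5 CPM in the controls. In D-3 IR it lay between 29.1 and 99.8 CPM (median 44.6), and in D+1 IR between 8.62 and 74.0 CPM (median 18.3). Isg20, a 3′ to 5′ exonuclease of single-stranded RNA, was at 15.4, 20.6, 27.6, 5.79 and 19.7 CPM in the controls, at 8.17 to 45.3 CPM in D-3 IR (median 18.0) and at 6.36 to 17.1 CPM in D+1 IR (median 10.2). Both were lower in most D+1 IR libraries than in most D-3 IR libraries, and the ranges overlapped. D-3 IR 16 had the highest level of both genes. An ISRE match lies before Rsad2, as shown above, and a GAS match in a window of Isg20. In D-3 IR against D+1 IR the log2 fold change was 0.77 (SE 0.44) for Rsad2 and 0.91 (SE 0.36) for Isg20. The adjusted p from edgeR were 0.475 and 0.417. Of the 35 members only these 2 genes were above 0 in that comparison. With limma voom and sample weights the log2 fold changes were 1.20 (SE 0.39) and 1.16 (SE 0.37), with adjusted p = 0.0484 and 0.0467. These 2 members then passed the threshold, and so did 13.0% of all genes tested. Without D+1 IR 20 edgeR gave 1.19 (SE 0.41) for Rsad2 and 1.06 (SE 0.37) for Isg20, both with an adjusted p of 0.329. Across the libraries the median Spearman correlation of Isg20 with the other 34 genes was -0.05, that of Rsad2 was 0.35, and the closest gene to each was Rsad2 for Isg20 (0.78) and Isg15 for Rsad2 (0.85). Without D-3 IR 16 the edgeR values were 0.51 (SE 0.44) and 0.59 (SE 0.32). Markers of red blood cells moved with these genes in some libraries, but not in D+1 IR 20. Summed over 4 genes, none at 0 in all libraries, they lay between 66.5 and 5195 CPM in control, between 422 and 7628 CPM in D-3 IR and between 175 and 1137 CPM in D+1 IR. They were highest in D-3 IR 16, and lowest of their groups in control 8 and D-3 IR 15. These libraries also held the lowest Isg20 and Rsad2 of those groups. In D+1 IR the red blood cell markers were lowest in D+1 IR 20 (175 CPM). That library held the highest Rsad2 (74.0 CPM) and Isg20 (17.1 CPM) of its group. For D-3 IR against D+1 IR the median log2 fold change of the markers was 2.88, with 4 of 4 above 0 and adjusted p of 0.409 from edgeR. Their part in the levels of Rsad2 and Isg20 was not tested.

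**Figure D2:**
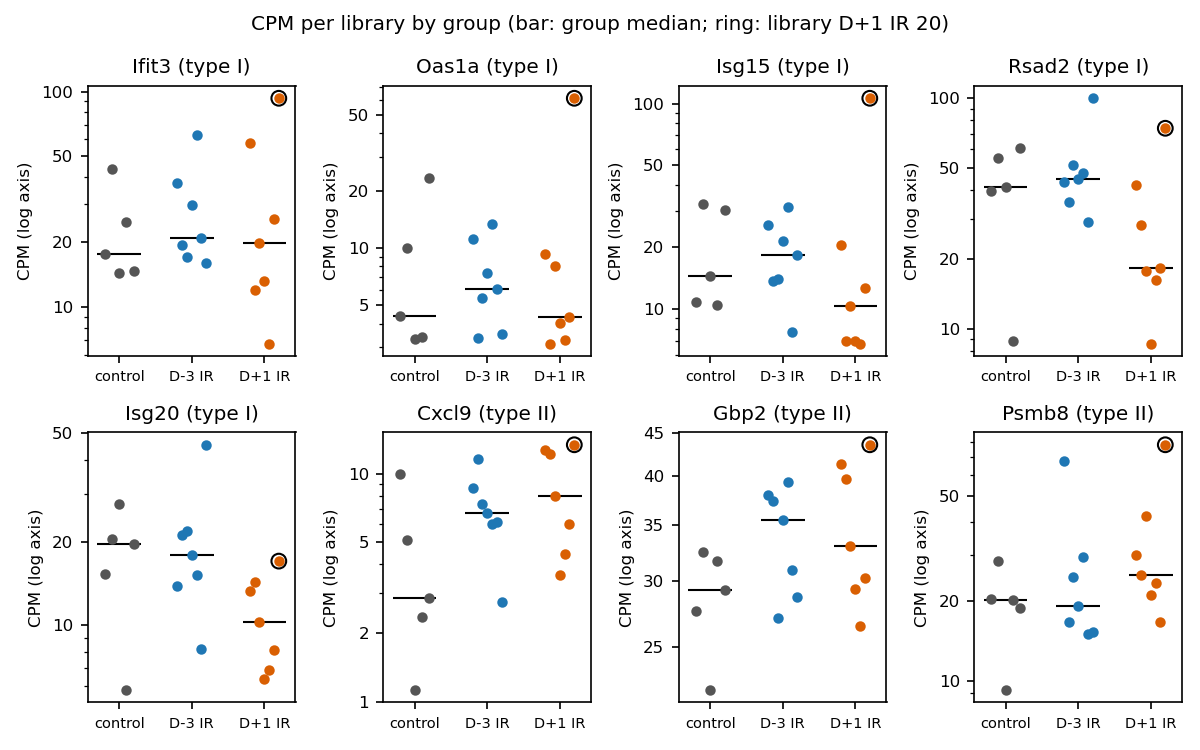
CPM of 5 type I and 3 type II genes in each library (log axis) for 5 control, 7 D-3 IR and 7 D+1 IR libraries, with a bar at the group median and a ring around D+1 IR 20. In Oas1a and Isg15 the ringed library lies far above the other D+1 IR libraries, the medians of Rsad2 and Isg20 are lowest in D+1 IR, and the medians of Cxcl9 are higher in both irradiated groups than in control, with overlapping ranges.

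Sensors and transcription factors carry the signal onward. Irf7, the factor that amplifies interferon alpha production, was at 18.2, 40.6, 10.9, 16.4 and 39.2 CPM in the controls. The D-3 IR libraries lay between 16.7 and 64.9 CPM (median 25.1) and the D+1 IR libraries between 9.27 and 210 CPM (median 16.8). The D+1 IR median was thus close to that of the controls, while the group mean rested on 1 library: the log2 fold change against control was 0.98 (SE 0.70) with it and -0.15 (SE 0.49) without it. Stat2 and Irf9, both part of the type I complex, had log2 fold changes of 0.19 (SE 0.31) and 0.05 (SE 0.28) in that comparison. Without D+1 IR 20 they were -0.17 (SE 0.22) and -0.14 (SE 0.26). Ifi35, an interferon-induced leucine zipper protein, had 0.08 there, -0.20 without that library, and ranged from 13.1 to 50.8 CPM. Zbp1, a sensor of Z-form nucleic acid, was at 3.02, 10.5, 3.34, 3.39 and 18.7 CPM in the controls, at 3.84 to 18.3 CPM in D-3 IR (median 5.36) and at 2.76 to 67.8 CPM in D+1 IR (median 5.51). Its log2 fold change in D+1 IR against control was 1.00 (SE 0.76), and -0.18 (SE 0.57) without D+1 IR 20. Ifih1 (Mda5, a sensor of long double-stranded RNA) was an exception to the pattern of the type I genes. It had its highest level, 24.5 CPM, in D+1 IR 1, and its log2 fold change in D+1 IR against control was 0.33 (SE 0.25) with D+1 IR 20 and 0.30 (SE 0.26) without it. Irf1, the main factor downstream of type II interferon, had a mean ± SD of 27.8 ± 6.95 CPM over the 5 controls, of 27.5 ± 12.1 over the 7 D-3 IR libraries and of 34.9 ± 14.1 over the 7 D+1 IR libraries. The differences between these means were smaller than the SD of either irradiated group.

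Among the type II genes the chemokine Cxcl9, which draws T cells through Cxcr3, had the smallest unadjusted p in D+1 IR against control. It was at 9.98, 5.12, 1.12, 2.34 and 2.86 CPM in the controls. In D-3 IR it lay between 2.73 and 11.6 CPM (median 6.73) and in D+1 IR between 3.61 and 13.4 CPM (median 7.98). All D+1 IR libraries were above 3 of the 5 controls, but control 4 lay within the range of both irradiated groups. The log2 fold change was 0.72 (SE 0.47) in D-3 IR against control and 1.01 (SE 0.48) in D+1 IR against control, with adjusted p = 1 and 0.644 from edgeR, and 0.87 (SE 0.49) in the second without D+1 IR 20. Its neighbour Cxcl10, induced by both interferons, had the largest log2 fold change of all members in D+1 IR against control, 1.35 (SE 0.96), and 0.35 (SE 0.86) without D+1 IR 20, where it reached 31.2 CPM against a control range of 0.682 to 7.80 CPM.

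The guanylate-binding proteins coat vacuoles that hold microbes, and several lie side by side on chromosome 3. Gbp2 (142620602 to 142638008) was at 27.6, 32.4, 22.2, 31.6 and 29.3 CPM in the controls, at 27.0 to 39.3 CPM in D-3 IR (median 35.5) and at 26.5 to 43.6 CPM in D+1 IR (median 33.0). It had the narrowest spread of all members. Its log2 fold change was 0.24 (SE 0.15) in D-3 IR against control and 0.28 (SE 0.15) in D+1 IR against control, with adjusted p = 1 and 0.644 from edgeR. Gbp3 had 0.18 (SE 0.34) and 0.39 (SE 0.35). The row named Gbp5 (ENSMUSG00000040264, called Gbp2b by GENCODE M21) was too low to be tested, with 173 counts for D-3 IR 10, 86 for D+1 IR 3 and 0 to 8 in each of the other libraries. These are the same 2 libraries that held lymphoid markers. The gene that GENCODE calls Gbp5 (ENSMUSG00000105504) had a mean ± SD of 7.29 ± 2.39 CPM over the 5 controls, of 8.52 ± 3.44 over the 7 D-3 IR libraries and of 10.8 ± 4.71 over the 7 D+1 IR libraries. Its log2 fold change in D+1 IR against control was 0.57 (SE 0.33, adjusted p = 0.644 from edgeR).

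Immunity-related GTPases work beside the Gbp proteins at such vacuoles. Igtp was at 21.2, 21.1, 6.48, 16.3 and 20.1 CPM in the controls, at 12.1 to 25.7 CPM in D-3 IR (median 15.4) and at 15.3 to 47.9 CPM in D+1 IR (median 18.3). The low control was library 6, which also had the highest smooth muscle markers (26260 CPM) and the lowest macrophage markers (128 CPM) of all libraries. Their part in the level of Igtp was not tested. In D+1 IR against control log2 fold changes were 0.50 (SE 0.33) for Igtp, 0.22 (SE 0.27) for Irgm1 and 0.52 (SE 0.30) for Iigp1. The fit without D+1 IR 20 gave 0.24 (SE 0.29), -0.05 (SE 0.20) and 0.37 (SE 0.30).

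Psmb8 and Psmb9 (subunits of the immunoproteasome) and Tap1 (which pumps peptides into the endoplasmic reticulum) lie together on chromosome 17 and serve antigen presentation on MHC class I. Psmb8 (34197721 to 34201454) was at 20.4, 28.4, 9.26, 20.2 and 18.9 CPM in the controls. The D-3 IR libraries lay between 15.0 and 67.9 CPM (median 19.1) and the D+1 IR libraries between 16.7 and 78.0 CPM (median 25.1). The highest libraries were D-3 IR 10 and D+1 IR 20, and the remaining D-3 IR libraries lay between 15.0 and 29.5 CPM, nearly within the control range. Psmb9 tracked Psmb8 with a Spearman correlation of 0.97 over the 19 libraries, the highest of all pairs of type II genes, and Tap1 had its 2 highest values, 85.8 and 84.9 CPM, in the same 2 libraries. The log2 fold changes in D+1 IR against control were 0.80 (SE 0.43), 0.81 (SE 0.44) and 0.67 (SE 0.44) for Psmb8, Psmb9 and Tap1, with adjusted p = 0.644, 0.644 and 0.655 from edgeR. Without D+1 IR 20 they were 0.44 (SE 0.38), 0.49 (SE 0.41) and 0.31 (SE 0.40). In D-3 IR against control they were 0.47 (SE 0.42), 0.64 (SE 0.44) and 0.52 (SE 0.44). Without D-3 IR 10 and D+1 IR 3 these dropped to 0.05 (SE 0.37), 0.25 (SE 0.39) and 0.08 (SE 0.36).

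In the whole list, D-3 IR against control gave 24 of 35 log2 fold changes above 0 and a median of 0.10, where 43.1% of all genes were above 0 with a median of -0.03. Type I genes were split, with 11 of 20 above 0 and a median of 0.05, and 8 of 10 type II genes were above 0 with a median of 0.21. No member passed the adjusted threshold (0% of all genes did), and none had an unadjusted p under 0.05, as 1.32% of all genes had. The median over the type I genes changed sign when any of the libraries control 4, 6 or 8 or D-3 IR 10 or 14 was left out, and ran from -0.19 to 0.23. Without D-3 IR 10 and D+1 IR 3, 17 of 35 members were above 0, beside 42.5% of all genes, and their median was -0.01. With limma voom and sample weights the type I median was -0.31, and the median of type II genes was -0.03, so that neither direction held across the fits.

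In D+1 IR against control 33 of 35 members were above 0, where 44.9% of all genes were, and their median was 0.42 (all genes -0.04). Type I genes had 18 of 20 above 0 with a median of 0.38, and type II genes had 10 of 10 with a median of 0.51. None passed the adjusted threshold (0% of all genes), with adjusted p from 0.644 to 0.99 in edgeR, and only Cxcl9 had an unadjusted p under 0.05, where 7.11% of all genes did. Without D+1 IR 20 the 2 classes parted. Then 3 of 20 type I genes and 9 of 10 type II genes were above 0, beside 43.2% of all genes, and the medians were -0.30 and 0.28. With D-3 IR 10 and D+1 IR 3 also left out, 4 of 20 and 9 of 10 were above 0, beside 45.0% of all genes, with medians of -0.47 and 0.21. With limma voom and all libraries the medians were -0.20 and 0.31. The other control and irradiated libraries, left out singly, kept the median of type I genes above 0. Leaving out control 6 gave a type II median of 0.32, with 10 of 10 above 0, beside 44.6% of all genes. A test of the difference between the classes was not made, since their members were chosen with these results known.

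**Figure D3:**
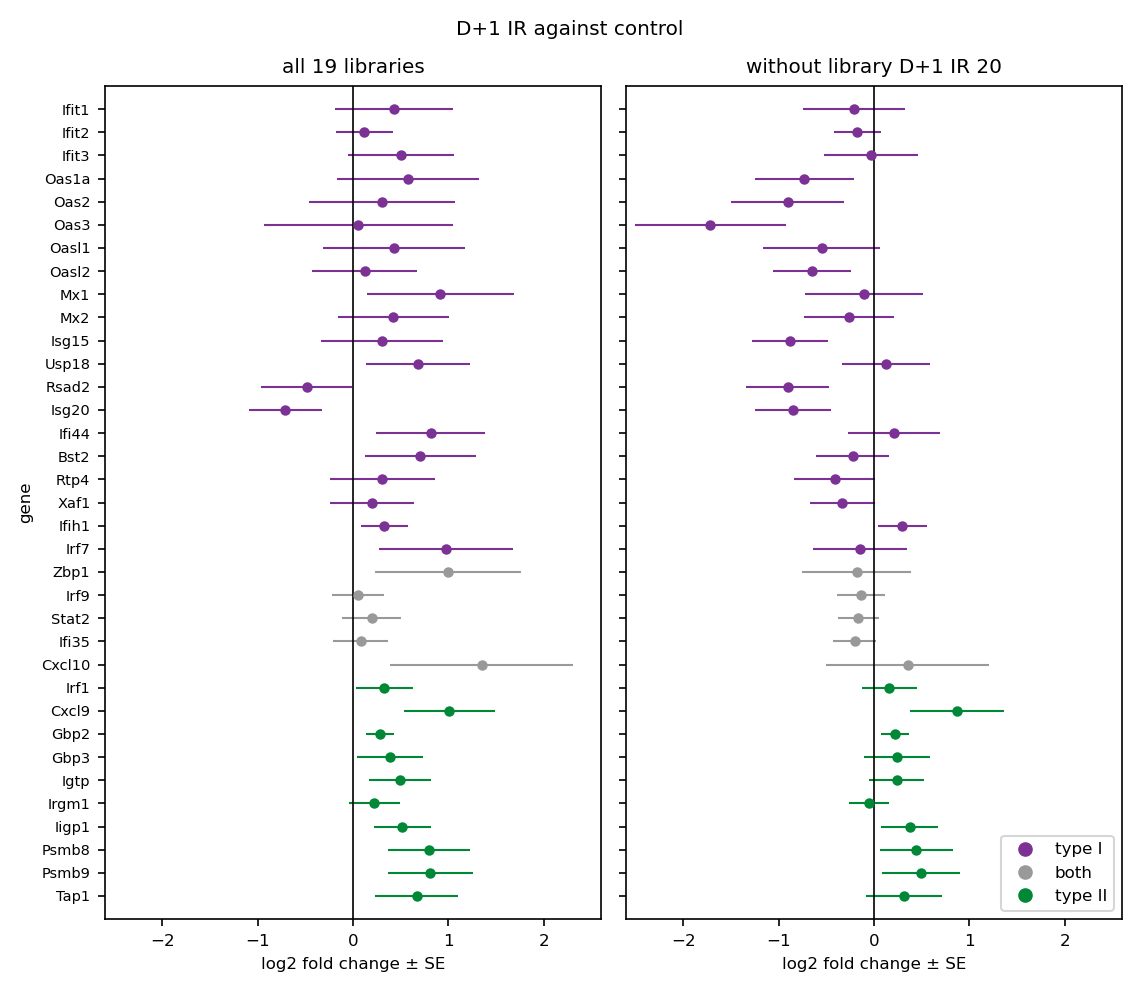
Log2 fold change of the 35 tested members in D+1 IR against control (points, coloured by class) with its standard error (bars), fitted with all 19 libraries (left) and without D+1 IR 20 (right). On the left 33 of 35 points lie above 0, and on the right most type I points lie below 0 while 9 of 10 type II points stay above it.

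In D-3 IR against D+1 IR, which uses no control library, 2 of 35 members were above 0 (45.4% of all genes) and the median was -0.34 (all genes -0.04). The medians were -0.43 for type I and -0.25 for type II genes. None passed the adjusted threshold (0% of all genes), and 1, Isg20, had an unadjusted p under 0.05 (11.5% of all genes). Without D+1 IR 20, 28 of 35 members were above 0 (47.9% of all genes), among them 19 of 20 type I genes with a median of 0.37, while type II genes had a median of -0.02. With D-3 IR 10 and D+1 IR 3 also left out, 23 of 35 were above 0, beside 41.2% of all genes, with a median of 0.16. An F-test over all 3 groups at once called no member (0% of all genes), and none had an unadjusted p under 0.05, as 6.65% of all genes had. No member had groups that did not overlap, and over all genes this was so in 0.0114%, 0.136% and 0.159% of genes for the comparisons in the order given. The first 2 comparisons share the control libraries and the values of D+1 IR enter the last 2, so that the 3 sets of values are not independent.

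The comparison of the classes within each library rests on the mean of the members' log2 CPM, each centred on its own mean. For type I genes it was -0.06 ± 0.66 (SD) over the 5 controls, 0.07 ± 0.53 over the 7 D-3 IR libraries and -0.03 ± 1.17 over the 7 D+1 IR libraries. For type II genes it was -0.31 ± 0.52, 0.00 ± 0.44 and 0.22 ± 0.57 in the same order. Control 6 held the lowest type II mean of all libraries (-1.16), and the other controls lay between -0.37 and 0.15. The D+1 IR means without library 20 were -0.40 ± 0.68 for type I and 0.05 ± 0.39 for type II genes. The group means of either class differed by less than the larger SDs. Type I exceeded type II in 3 of 5 control, 4 of 7 D-3 IR and 2 of 7 D+1 IR libraries. The difference, type I minus type II, had means of 0.25 ± 0.45, 0.07 ± 0.32 and -0.25 ± 0.70 (SD) for the groups in that order, with ranges that overlapped, and -0.46 ± 0.47 in D+1 IR without library 20. Its extremes were both in D+1 IR, with -1.04 in D+1 IR 2 and 1.01 in D+1 IR 20. Between libraries the 2 means moved together, with Pearson's r = 0.76 and Spearman's rho = 0.68 over the 19 libraries, and r = 0.59 without D+1 IR 20 and D-3 IR 14. Pairs of type I genes had a median rho of 0.68 (190 pairs), pairs of type II genes 0.63 (45 pairs), and pairs across the classes 0.55 (200 pairs). Within D+1 IR, the libraries 1, 2 and 3, whose file numbers form another series, had a type II mean of 0.39 against 0.09 in the other 4, and a type I mean of -0.05 against -0.01. With D+1 IR 20 left out of the other 4, their means were -0.29 for type II and -0.75 for type I, below those of libraries 1, 2 and 3. No other group holds both series. Libraries 1, 2 and 3 also had the highest summed white adipocyte markers of all libraries (2164, 2392 and 2053 CPM). The part of these markers in the means was not tested. These are descriptions over libraries that share groups, file series and cell makeup.

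**Figure D4:**
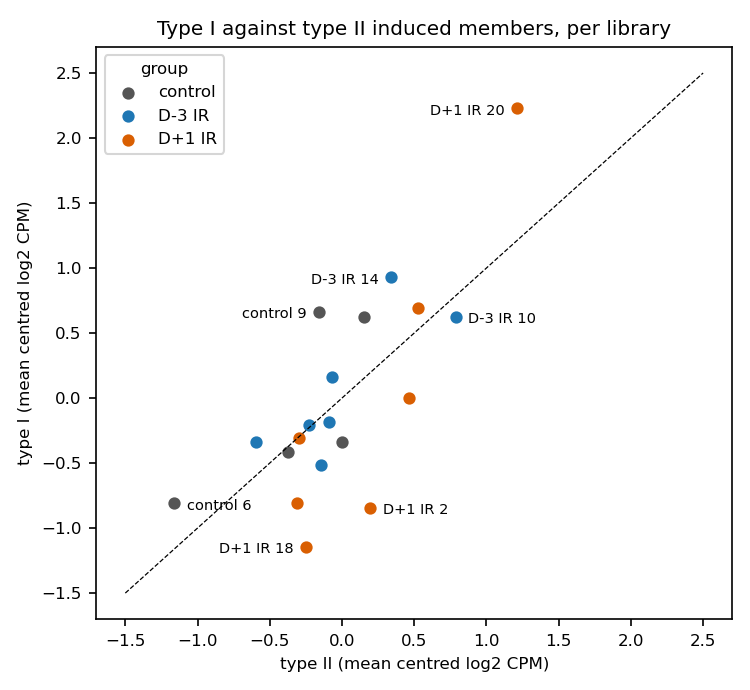
Mean centred log2 CPM of the 20 type I members (vertical) against the 10 tested type II members (horizontal) in each library, coloured by group, with a dashed line where the 2 are equal. D+1 IR 20 lies at the top right (2.23 and 1.21), 5 of 7 D+1 IR libraries lie below the line, and control 9 lies above it.

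Library D+1 IR 20 was singled out after its values were seen. It exceeded the median of the other 18 libraries in 35 of 35 members, where it did so in 47.4% of all genes tested. The ratio to that median had a median of 5.72 over type I genes, from 1.16 in Isg20 to 19.3 in Oas3, and of 2.41 over type II genes, from 1.39 in Gbp2 to 3.75 in Psmb8. Over all genes the median ratio was 0.963. It was the highest library in 9.04% of all genes tested and in 31 of the 35 members, namely 17 of 20 type I, 9 of 10 type II and 5 of 5 genes of both.

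Cell type markers moved with the members from library to library. Summed macrophage markers ranged from 128 to 1219 CPM over the controls, from 158 to 687 CPM over D-3 IR and from 286 to 2205 CPM over D+1 IR, and none of the 7 was at 0 in all libraries. The mean of the type I genes followed that of the macrophage markers with Pearson's r = 0.74 and Spearman's rho = 0.68, and r = 0.57 without D+1 IR 20 and D-3 IR 14. For type II genes r was 0.63 and 0.25 without D+1 IR 20 and control 6. Smooth muscle markers, whose sums had medians of 12120 (control), 13130 (D-3 IR) and 6184 CPM (D+1 IR), went the other way with the type II genes (r = -0.75, rho = -0.73, and r = -0.61 without D+1 IR 20 and control 6). Antigen processing genes and B cell markers had r = 0.54 and rho = 0.33, and r = 0.27 without D-3 IR 10 and D+1 IR 20. Summed T and NK cell markers were at 177 CPM (D-3 IR 10), 90.2 CPM (D+1 IR 3) and 22.2 CPM (D+1 IR 20), against 2.36 to 16.0 CPM in the others. Siglech, 1 of 5 markers of plasmacytoid dendritic cells, had its highest levels in D-3 IR 10 (21.2 CPM) and D+1 IR 3 (16.5 CPM). Its medians were 0.796 (control), 0.998 (D-3 IR) and 1.00 CPM (D+1 IR). The sum of the 5 markers was instead highest in D+1 IR 20 (451 CPM), where Bst2, itself a member, made up 449 CPM. D-3 IR 10 followed with 230 CPM. In D+1 IR against control 3 of the 4 tested markers were above 0, with Siglech at 1.67 and Cox6a2 at -1.2. Cox6a2 had its highest level in D-3 IR 10 (42.2 CPM) and its highest count in D-3 IR 15 (2985). These libraries also had the highest summed skeletal muscle markers, 4886 and 1757 CPM against at most 531 CPM in the others. The part of these cell types in the members' levels was not tested.

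**Figure D5:**
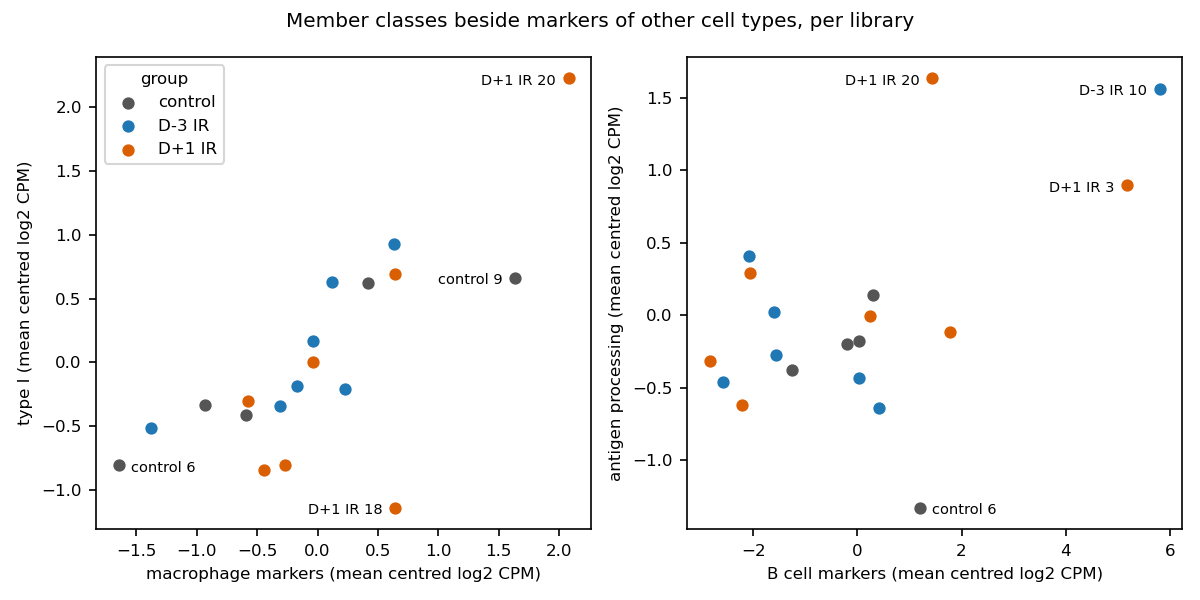
Mean centred log2 CPM per library, coloured by group: type I members against 7 macrophage markers (left), and the 3 antigen processing members against 4 B cell markers (right). D+1 IR 20 is highest on both vertical axes, control 9 is next on the macrophage axis, and D-3 IR 10 and D+1 IR 3 lie alone at the right of the B cell axis.

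The rest of the pathway was described from lists of other genes. The interferons themselves had few or no counts. Of 21 ligand genes, 17 had no count in any library, and none could be tested. Ifng, the type II interferon, had 32 counts in 9 of the 19 libraries, with at most 11 in D-3 IR 14, and Ifnb1 had 5 counts in 3 libraries. All 10 genes of receptors and signal transducers were tested and none passed. Ifngr2, the signalling chain of the type II receptor, had a mean ± SD of 95.7 ± 40.3 CPM over the 5 controls, of 86.5 ± 20.0 over the 7 D-3 IR libraries and of 57.7 ± 17.7 over the 7 D+1 IR libraries. Its log2 fold change in D+1 IR against control was -0.73 (SE 0.26, adjusted p = 0.644 from edgeR), opposite to most members. Ifngr1, the other chain of that receptor, had 0.28 (SE 0.13, adjusted p = 0.644) in this comparison. Of the 10 genes 7 were above 0 there, beside 44.9% of all genes, with a median of 0.09. The receptor kinase Tyk2 had 0.18 (SE 0.12) in the same comparison.

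Nucleic acid sensing genes (16 tested) had 13 log2 fold changes above 0 in D+1 IR against control, with a median of 0.22, beside 44.9% of all genes. Leaving out D+1 IR 20 made it 7 of 16 with a median of -0.02, beside 43.2%. The adaptor Mavs had 0.43 (SE 0.29), the double-stranded RNA receptor Tlr3 0.34 (SE 0.18) and Dhx58, a relative of Ifih1, 0.63 (SE 0.48), and without that library 0.54 (SE 0.29), 0.30 (SE 0.19) and 0.06 (SE 0.38). Of 6 inhibitors, Pias1 had a log2 fold change of 0.37 (SE 0.15) for D-3 IR against D+1 IR. In that comparison Socs3, a feedback inhibitor of Jak kinases, had -1.59 (SE 0.71). The adjusted p from edgeR were 0.417 and 0.423. Socs3 ranged from 6.34 to 178 CPM in control, with the highest value in control 9, and in D+1 IR against control its log2 fold change was 0.29 (SE 0.76) with that library and 2.08 (SE 0.66) without it (adjusted p = 0.687 from edgeR). None of these lists had a gene past the threshold in any comparison.

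Further known targets of each class gave the following counts, beside the shares of all genes above. For D+1 IR against control, 28 of 30 other type I genes were above 0 with a median of 0.41, and 25 of 25 other type II genes with a median of 0.60. With D+1 IR 20 left out, these were 14 of 30 with a median of -0.03 and 24 of 25 with a median of 0.50. The lists were read in the same libraries as the members and give no independent support. In D-3 IR against control the counts were 19 of 30 with a median of 0.14, or 27 of 30 with a median of 0.37 without control 9, and 24 of 25 with a median of 0.35. Without control 9, 47.5% of all genes were above 0 in that comparison. Helz2, a coactivator with helicase domains, had a log2 fold change of 0.54 (SE 0.24, adjusted p = 0.644) in D+1 IR against control. Among the type II targets, Ubd, a ubiquitin-like modifier, had a mean ± SD of 0.394 ± 0.159 CPM over the 5 controls, of 2.62 ± 4.93 over the 7 D-3 IR libraries and of 1.83 ± 1.92 over the 7 D+1 IR libraries. Its highest values, 13.7 and 5.67 CPM, were in D-3 IR 10 and D+1 IR 3, the libraries with lymphoid markers. Gm4951, a GTPase gene, and Gbp9 had 1.09 (SE 0.42) and 0.70 (SE 0.31) in D+1 IR against control, with adjusted p = 0.644 for both from edgeR. In all 6 lists together no gene passed.

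The genes outside the members whose levels followed the classes most closely were found by Spearman correlation over the 19 libraries. For type I they were led by Oas1g (rho 0.92), Dhx58 (0.89), Phf11a (0.88), Slfn8 (0.88) and Gm36161 (0.87), and the 10 closest also held Phf11b, Rnf213, Ddx58, Ifit3b and Bco2. For type II they were led by H2-T10 and H2-T22 (both 0.91), 1300014J16Rik (0.91), the peptide-loading factor Tapbp (0.91) and the MHC class I gene H2-K1 (0.91), whose family shares near-identical sequence and is uncertain in counting, followed by Sp100, Pola2, Gngt2, Ifi203 and Ly6e. H2-K1 had group means of 466, 670 and 749 CPM (control, D-3 IR, D+1 IR) and reached 1280 CPM in D+1 IR 20. Oas1g had means of 1.56, 1.78 and 3.51 CPM in the same order, with 18.4 CPM in D+1 IR 20. The rule ranks genes by likeness alone, over libraries in which D+1 IR 20 was the highest for both classes.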

How the data were processed

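Poly(A) RNA from abdominal aortas of 19 mice was sequenced by the authors, who deposited raw counts per gene for each library and a joined table, made with STAR 2.7.9a on GRCm38 after quality checks in FastQC. Its 773262 values equal the unstranded counts, which were used here. Second-strand counts made up 49.9% to 50.1%, although the kit is named as stranded, so strand cannot tell genes with overlapping exons apart. Exons of other genes, on either strand, overlapped 16.8% of the exon length of Ifi35, 14.7% of Psmb8 and 13.9% of Rtp4. Reads aligned to several places (6.23% to 15.1%) were not counted, which can lower genes with near-identical copies such as Ifit3 and Oas1a.

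Members were matched by gene name and placed with GENCODE M21. The members and lists were chosen with earlier results of these data known. The main test was the quasi-likelihood F-test (two-sided) of edgeR 4.0.16 under R 4.3.3, with TMM factors, the default low-count filter (17617 genes kept) and 1 mean per group. Its p-values were corrected over all genes after Benjamini and Hochberg, at 0.05. The SE is the log2 fold change over the root of F. The spread between mice was a biological coefficient of variation of 0.591, and depth was 25839001 to 97083681 counts. CPM are scaled by TMM, and log2 CPM used a prior count of 2. All 36 members are named, with the 10 genes most like each class. Of the up to 4 genes of smallest p from each pathway list, only some are named. A gene of the lists is not reported here. Libraries were singled out with their values in view. The fit was tested on simulated data. Alternatives were DESeq2 1.42.0, limma 3.58.1 voom with sample weights, the newer quasi-likelihood method, other factors and filters, only the groups compared, and fits without libraries. Chosen after seeing the data were the fit without D-3 IR 10, D+1 IR 3 and D+1 IR 20, the use of Gbp5 by identifier, and values of gene groups and lists without single libraries. No library was a copy of another of its group. Correlations over libraries (11 pairs of class means) carry no test.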

Additional observations from a re-analysis of the deposited data

Results flagged for a closer look

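In each group of 5 or 7 libraries, the highest or lowest value was compared with the rest by Dixon's ratio on log2 CPM, over 111 sets of values of members and class means. Chance flags about 1 in 20 such sets, and the number flagged here, all named below, was near that share. Levels of the members moved together between libraries, so the sets are not independent. The share therefore cannot tell whether any single library stands apart by chance. In D+1 IR, library 20 stood apart for Oas1a (61.2 CPM against 3.14 to 9.25 in the other 6), Oas2 (44.9 CPM against 2.40 to 7.52), Isg15 (106 CPM against 6.78 to 20.4), Bst2 (449 CPM against 40.9 to 83.7) and Ifi35 (50.8 CPM against 16.7 to 24.4). In control, library 8 had 8.88 CPM of Rsad2 against 39.7 to 60.5 CPM in the other 4, and library 6 had 6.48 CPM of Igtp against 16.3 to 21.2 CPM. The mean levels of the type I and of the type II genes held no library that stood apart by this ratio. Library D+1 IR 20 also had the highest macrophage markers (2205 CPM), and control 6 the lowest (128 CPM), and their part in these values was not tested.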

How the results depend on the processing

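The number of members past the adjusted threshold was 0 in all 4 tests and stayed 0 under every alternative run, except limma voom with sample weights in D-3 IR against D+1 IR, which called 2 (Isg20 and Rsad2). For D-3 IR against D+1 IR the number with an unadjusted p under 0.05 was 1, and 4 with voom, 2 without D-3 IR 10 and D+1 IR 3, 2 without these and D+1 IR 20, and 0 to 3 without single libraries. In D+1 IR against control it was 1, and 0 with DESeq2 size factors, with only the groups compared, without D+1 IR 1, 2 and 3, and without D-3 IR 10 and D+1 IR 3, and 0 to 3 without single libraries. For any difference it was 0, and 2 with voom, 1 without D-3 IR 10, D+1 IR 3 and D+1 IR 20, and 0 to 2 without single libraries. In D-3 IR against control it was 0 in the other fits and 0 to 1 without single libraries (1 without control 4). There the median over all members was 0.10, and -0.22 with voom and -0.07 to 0.25 without single libraries.

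The median log2 fold change of type I genes in D+1 IR against control was 0.38, and -0.20 with voom, -0.47 without D-3 IR 10, D+1 IR 3 and D+1 IR 20, 0.64 without D+1 IR 1, 2 and 3, and -0.30 (without D+1 IR 20) to 0.56 without single libraries. That of type II genes was 0.51, and 0.31 with voom and 0.28 to 0.65 without single libraries. Between the irradiated groups the type I median was -0.43, and -0.68 without D+1 IR 1, 2 and 3 and -0.64 to 0.37 without single libraries. Of 105 member fold changes, 73 took the opposite sign under some alternative, and 33 of these were under 0.2 in size. The cause was not tested.

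No paired analysis was possible because the 19 libraries carry 19 different numbers, 1 for every mouse. The ligands and the row named Gbp5 had too few counts to be tested.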
